A study of Rattus norvegicus with 24 samples.

Results

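Collagens are the main structural proteins of the extracellular matrix, the meshwork outside cells. Fibrillar collagens (types I, III and V among them) are spun into tensile fibrils, procollagen being trimmed, assembled and then cross-linked by the lysyl oxidases. Type IV collagens and laminins form sheets, the basement membranes under epithelia and around vessels, and fibrillins, fibronectin and SPARC link or organise matrix. In liver the fibrillar matrix is made mostly by hepatic stellate cells and portal fibroblasts, and the sinusoids have only a sparse basement membrane. The members described here are the genes whose symbol marks a collagen chain, a lysyl oxidase, a laminin chain, a fibrillin, fibronectin (Fn1) or SPARC (Sparc). A gene was used where a probe set carried that symbol alone, and the probe set with the highest mean was kept. The rule gave 58 genes of the 17245 with such a probe set: 11 fibrillar collagens, 16 basement membrane genes (6 type IV collagen and 10 laminin chains) and 31 others. Col1a2 and Col3a1, the markers of the set, were among them.

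After 4 weeks on 5% protein, 21 of the 58 genes were lower than on 20% protein and 2 were higher, where 12.4% and 13.4% of all genes were. After 1 week none was lower and 2 were higher, where 2.44% and 1.86% of all genes were. The lower genes at 4 weeks held fibril collagens (Col1a2, Col3a1, Col5a1, Col5a2), 4 of 5 lysyl oxidases, the fibril-associated Col12a1, Col14a1 and Col16a1, Sparc, Fbn1, the type IV chains Col4a1 and Col4a2, and 3 laminin chains. The largest was Loxl4, 2.85-fold lower. Fibronectin, Lamb1 and Lamc1 passed the test at neither time.

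The animals were male Wistar rats, and each of the 24 livers gave total RNA for 1 whole-transcript Affymetrix array. There were 4 groups of 6: 5% protein for 1 week, 20% protein for 1 week, 5% protein for 4 weeks and 20% protein for 4 weeks. The 20% diet is the study's normal diet and the 5% diet its low-protein diet, and no genetic change or drug is named for these animals. Array file codes write 4 and 18 where the titles write 5 and 20, and the design text names only the 4-week period, so the percentages and the 1-week period rest on the titles. Titles number the rats separately, so replicates are animals. The number of arrays limits precision: over all genes, diet differences had a standard error of 0.10 log2 units at the median. Array medians lay between 42.4 and 45.5 intensity units, and Pearson's r within groups over all genes ranged from 0.984 to 0.995. No pair of arrays was identical. The hepatocyte marker Alb (albumin) lay between 13.50 and 13.87 on every array, in log2 intensity.

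Values are log2 of the deposited intensity, and each difference is 5% minus 20% protein with its standard error (SE) from limma, so 1 unit is a 2-fold difference. Adjusted p-values are Benjamini-Hochberg values over all 17245 genes, and a gene is said to have risen or fallen where the adjusted p was under 0.05. A level of one gene is not set against that of another, since probes differ in brightness.

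The background at 4 weeks was broad: 12.4% of all genes were called lower and 13.4% higher on 5% protein, and the median difference of all genes was -0.01. Of the members, 36.2% were called lower (21 of 58) and 3.45% higher (2 of 58), with a median difference of -0.20. The members lay above 0 in 14 of 58 cases. In 13 of the 58, every animal on 5% protein was below every animal on 20%, against 5.88% of all genes, and in 1, Col19a1, every animal was above, against 6.55%. Among genes with a mean above the median of all genes, 18.9% were called lower, and 14 of the 23 members there were. The median difference was -0.47 for those 23 and -0.08 for the other 35. Fewer cells of a type and less RNA per cell cannot be told apart in whole liver.

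Among the 11 fibrillar collagens 4 fell, none rose and the median was -0.36. Col3a1, the type III chain that accompanies type I in distensible tissue, lay at 8.40, 8.77 and 9.66 (lowest, median, highest of 6) on 20% protein for 4 weeks and at 7.17, 7.97 and 8.19 on 5%. Every animal on 5% was below every one on 20%, and the difference was -1.05 ± 0.21 (SE, n = 6 and 6), a 2.07-fold lower level (adjusted p = 0.00061). Its highest value, in rat 30, stood apart from the other 5 (8.40 to 8.87). Col1a2, the second chain of type I collagen, lay at 7.75, 7.95 and 9.33 on 20% and at 7.03, 7.38 and 7.80 on 5%. These groups overlapped narrowly, and the difference was -0.80 ± 0.23 (1.75-fold lower, adjusted p = 0.00931). Without rat 30 it was -0.58.

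Col1a1, the partner chain of type I collagen, did not pass. Its values on 20% ran from 6.83 through a median of 7.45 to 9.93, the widest spread of any named member, and on 5% from 6.14 through 7.01 to 7.91. The difference was -0.97 ± 0.40 (adjusted p = 0.081), and it was -0.58 without rat 30. It passed only without rat 29 (adjusted p = 0.0291) or rat 31 (0.0469), among the 12 animals left out in turn at 4 weeks. The minor fibril chains Col5a1 and Col5a2, which set fibril width with type I, fell by 0.36 ± 0.09 (adjusted p = 0.00549) and 0.39 ± 0.09 (0.00214). Col5a1 groups did not overlap. Col27a1 groups did not overlap either, but its difference of -0.65 ± 0.27 missed the threshold (0.0814). By run of animal numbers its difference was -1.28 in rats 22 to 32 and -0.40 in rats 59 to 73. On 20% protein alone, the later of these runs minus the earlier was -0.98 for Col27a1, so its level also varied with the run. Cartilage chains Col2a1, Col11a1 and Col11a2 and Col24a1 lay between -0.07 and -0.01.

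The promoter of Col1a2 is shown because this gene is a marker of the set and its stretch holds both a CCAAT letter group and a TATA letter group. Promoter sequences come from RefSeq for the rat build GRCr8, and are read 5′ to 3′ on the gene's strand. The stretch is 120 bases long and begins 250 bases before the annotated start, at chr4:33518307-33518426 on the + strand. Capitals mark TATAA and the other-strand match to CCAAT.
Col1a2: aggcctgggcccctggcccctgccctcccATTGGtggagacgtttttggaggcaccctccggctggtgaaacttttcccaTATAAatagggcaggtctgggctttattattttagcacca
The first match begins 221 bases and the second 170 bases before that start.

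**Figure D1:**
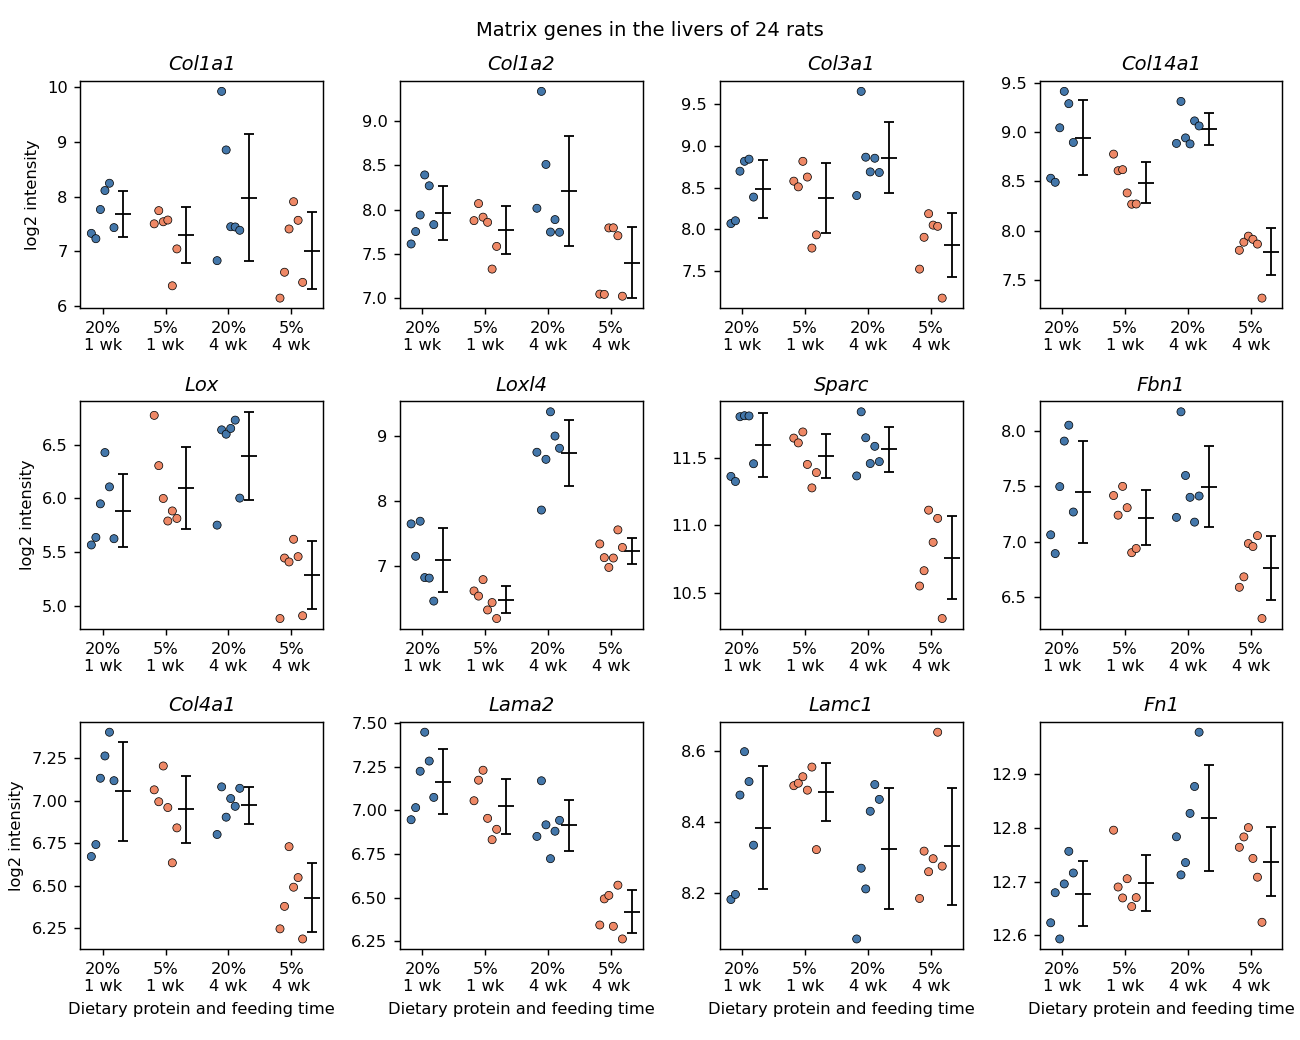
Log2 intensity of named members in each of the 24 animals, by diet and week; points are animals and the black bars give the mean ± SD of 6 animals. At 4 weeks Col3a1, Loxl4, Lox and Sparc on 5% protein lie below all 20% values, and 1 animal on 20% (rat 30) is highest for Col3a1 and Col1a2.

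The enzymes that cross-link collagen and elastin had the lowest median difference of the member classes: 4 of 5 lysyl oxidases fell, and the median was -0.87. Loxl4 lay at 7.86, 8.78 and 9.38 (lowest, median, highest) on 20% protein for 4 weeks and at 6.97, 7.20 and 7.55 on 5%. The ranges were separate, and the difference was -1.51 ± 0.21, 2.85-fold lower (adjusted p = 6.22e-06). Lox, the founding member of the family, lay at 5.75, 6.62 and 6.73 on 20% and at 4.88, 5.43 and 5.62 on 5%. Its groups did not overlap and it fell by 1.11 ± 0.20 (2.16-fold lower, adjusted p = 0.000145). Loxl2 lay at 7.58, 7.65 and 8.04 on 20% and at 6.28, 6.93 and 7.22 on 5%, and fell by 0.87 ± 0.13 (adjusted p = 1.76e-05). Loxl1 fell by 0.57 ± 0.21 (0.0441), with overlapping groups. Loxl3 had -0.21 ± 0.09 (0.101).

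The 120 bases before the annotated start of Loxl4, the member with the largest fall, are shown because GGGCGG occurs there 3 times. They lie at chr1:251365578-251365697 on the - strand, and capitals mark the matches.
Loxl4: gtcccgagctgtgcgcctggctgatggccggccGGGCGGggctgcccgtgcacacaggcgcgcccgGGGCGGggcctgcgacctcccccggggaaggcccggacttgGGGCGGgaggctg
The matches begin 87, 54 and 13 bases before the start.

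Among the other matrix glycoproteins, Sparc, which binds collagen and is made by stellate and endothelial cells, lay at 11.37, 11.53 and 11.84 on 20% for 4 weeks and at 10.31, 10.77 and 11.11 on 5%. No animal on 5% reached the lowest on 20%, and the difference was -0.80 ± 0.13, 1.74-fold lower (adjusted p = 4.02e-05). The microfibril gene Fbn1 lay at 7.18, 7.41 and 8.18 on 20% and at 6.30, 6.82 and 7.06 on 5%, again with separate ranges, and fell by 0.74 ± 0.19 (adjusted p = 0.0049). Fibronectin, which hepatocytes also secrete into plasma, lay at 12.71, 12.80 and 12.98 on 20% and at 12.62, 12.75 and 12.80 on 5%. The difference, -0.08 ± 0.05, did not pass (0.312). For comparison with the other printed promoters, the 120 bases before the annotated Sparc start, at chr10:40038817-40038936 on the - strand, held no match to any of the letter groups searched. Outside the printed stretch, an other-strand match to CAGACA begins 226 bases before that start.
Sparc: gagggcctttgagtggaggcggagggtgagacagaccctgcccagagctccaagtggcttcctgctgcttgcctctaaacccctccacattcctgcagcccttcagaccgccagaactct

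Fibril-associated collagens, which sit on fibril surfaces, held the largest collagen fall and the largest member rise. Col14a1 lay at 8.88, 9.01 and 9.32 on 20% for 4 weeks and at 7.31, 7.87 and 7.94 on 5%, with no overlap. It fell by 1.25 ± 0.14, 2.38-fold lower (adjusted p = 6.7e-07). Col12a1 fell by 0.70 ± 0.17 (0.00236) and Col16a1 by 0.24 ± 0.07 (0.00784). Col19a1 lay at 6.72, 7.14 and 7.25 on 20% and at 7.66, 7.84 and 8.44 on 5%, and rose by 0.90 ± 0.14, 1.86-fold (adjusted p = 2.74e-05). A second probe set of Col19a1 differed by 0.07 and was not called, so the 2 probe sets disagree. The second had a mean of 4.14, against 7.48 for the kept one, where the median gene lay at 6.31. So dim a probe set may not show a change. Of the network collagens, Col8a1, a vascular wall collagen, fell by 0.75 ± 0.16 (0.000847), and of the other collagens Col26a1 fell by 0.53 ± 0.13 (0.00466). Beaded filament collagens gave 1 fall of 6, Col6a6 by 0.26 ± 0.09 (0.0419), while Col6a1, Col6a2 and Col6a3 had -0.25, -0.47 and -0.38 without passing. The endostatin-carrying Col18a1 differed by 0.02.

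Basement membrane genes showed 5 falls and 1 rise of 16, with a median of -0.14. Col4a1, a chain of the common type IV collagen, lay at 6.80, 6.99 and 7.08 on 20% for 4 weeks and at 6.19, 6.44 and 6.73 on 5%. The ranges were separate, and it fell by 0.54 ± 0.12, 1.46-fold lower (adjusted p = 0.00108). Col4a2, its partner chain, lay at 7.60, 7.69 and 7.85 on 20% and at 7.21, 7.50 and 7.59 on 5%, and fell by 0.27 ± 0.09 (0.0355). A second probe set gave -0.26 with adjusted p = 0.0846. The minor type IV chains Col4a3 to Col4a6 differed by -0.15 to 0.05 and did not pass.

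The genes for these 2 chains face away from each other, with 76 bases between their annotated starts. That shared stretch is shown because both chains were lower at 4 weeks. It lies at chr16:84885521-84885596 and is read on the strand of Col4a1, with its one match to GGGCGG, on the other strand, in capitals.
Col4a1 and Col4a2: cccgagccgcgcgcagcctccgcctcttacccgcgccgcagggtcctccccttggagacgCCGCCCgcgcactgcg

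Of the laminin chains, Lama2, found around muscle and vessels, fell by 0.50 ± 0.09 (adjusted p = 0.000232), although its second probe set gave -0.17 (0.0775). Lama4, an endothelial chain, fell by 0.34 ± 0.11 (0.0216) and Lamb2 by 0.36 ± 0.13 (0.0379). Lamb3, an epithelial chain, rose by 0.42 ± 0.14 (0.0228). It did not pass with the run of animal numbers as a covariate (0.31, adjusted p = 0.157), nor in either run alone. The shared chains Lamb1 and Lamc1 had -0.39 ± 0.20 (0.163) and 0.01 ± 0.09 (0.972). Calls were lost when 1 animal was left out for 6 genes. Loxl1 was lost without rats 22, 23, 59, 30, 63 or 67, and Lamb2 without rats 23, 32, 59, 30, 63 or 67. Col6a6 was lost without rats 22, 23, 31, 32, 59, 30, 67 or 72, and Col4a2 without rats 22, 31, 59, 30, 67 or 73. Lama4 was lost without rats 59 or 30, and Lamb3 without rats 32, 72 or 73. Without rat 30 the falls numbered 16 of the original 21.

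**Figure D2:**
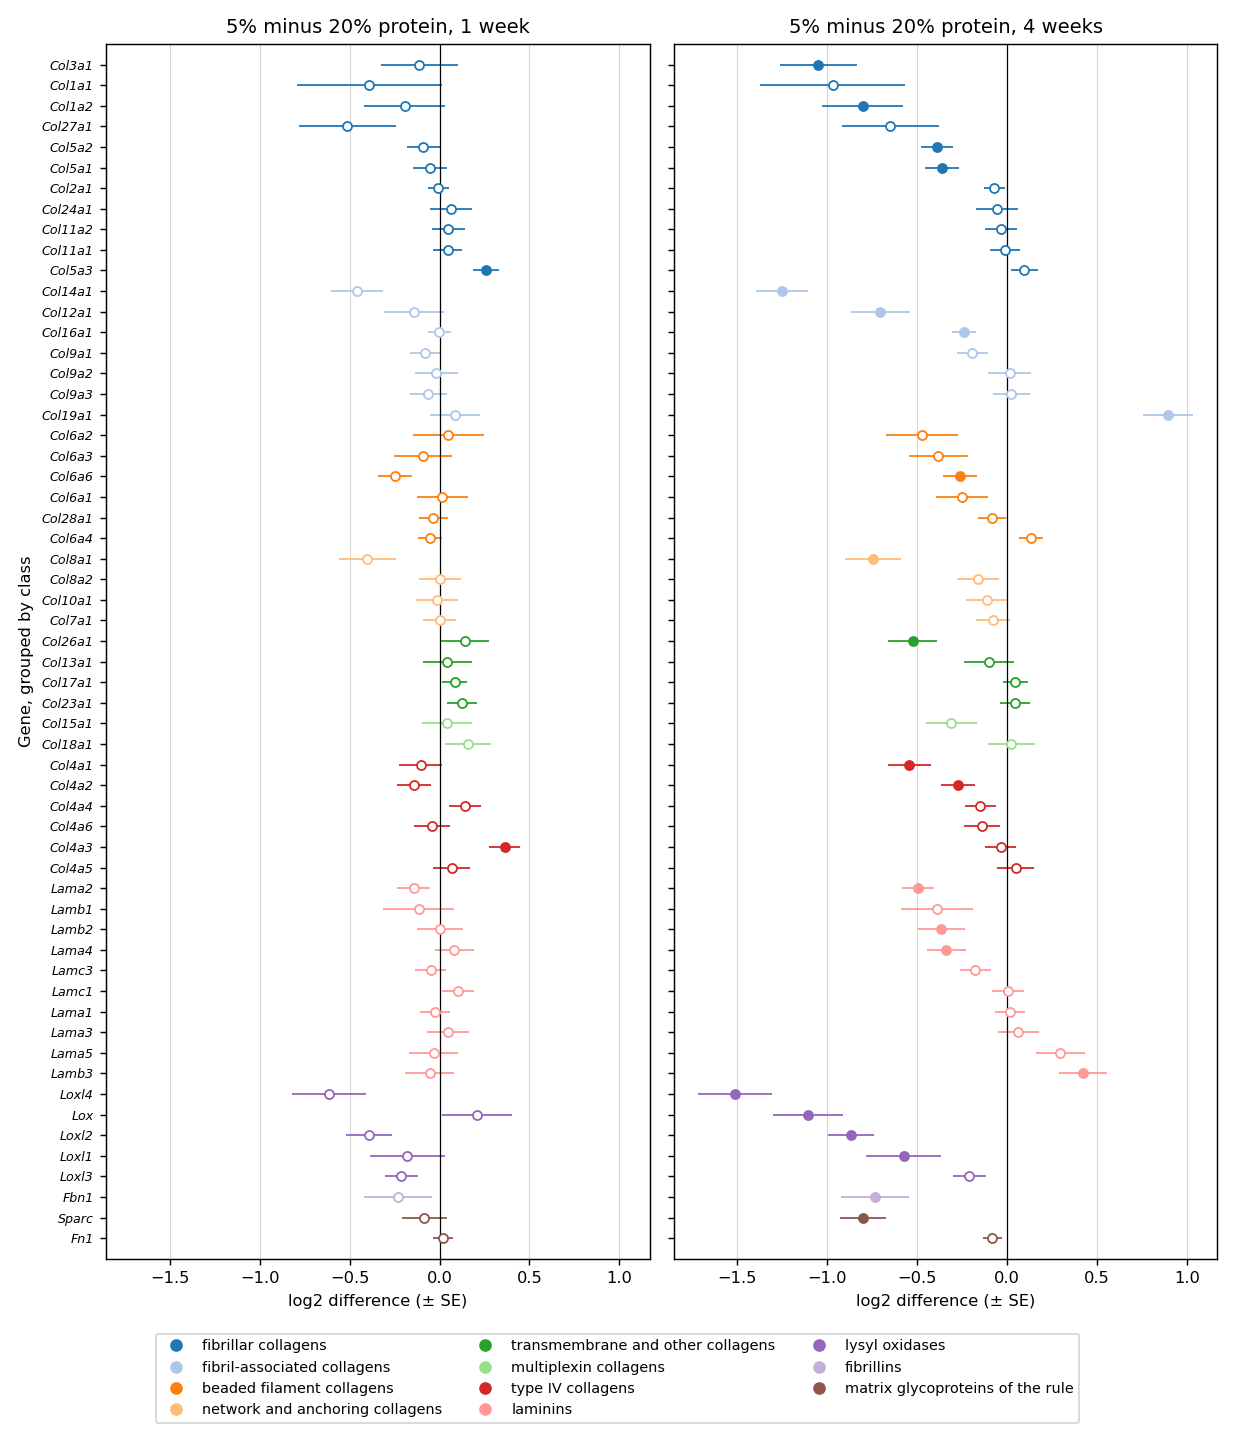
Difference in log2 intensity (5% minus 20% protein, ± SE) for each member at 1 week and at 4 weeks; filled points passed the test over all genes and open points did not. At 4 weeks Loxl4 lies at the far left, at -1.51, and the other lysyl oxidases lie between it and -0.21. Col19a1 lies at the far right, at 0.90.

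For the contrast of matrix types, the mean log2 of the 11 fibrillar collagens minus the mean log2 of the 16 basement membrane genes was taken in each animal. Its zero has no meaning, so differences between animals alone are read. On 20% protein the value was 0.31 ± 0.07 (SD, n = 6) at 1 week and 0.49 ± 0.18 at 4 weeks, and on 5% protein 0.22 ± 0.03 and 0.23 ± 0.09. The diet difference was -0.09 at 1 week and -0.26 at 4 weeks. At 4 weeks the value ran from 0.32 to 0.81 on 20% and from 0.10 to 0.34 on 5%, which overlapped in 1 animal of each diet at the edges. The fibrillar mean was 6.38 on 20% and 5.99 on 5% at 4 weeks, and the basement membrane mean 5.89 and 5.76. No p-value is given, since the members were chosen with results known. With the members above the median level alone (4 fibrillar, 7 basement membrane) the 4-week difference was -0.45. There the groups overlapped, from 0.35 to 1.45 on 20% (median 0.45) and from -0.10 to 0.52 on 5% (median 0.27). Rat 30 had the highest value.

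**Figure D3:**
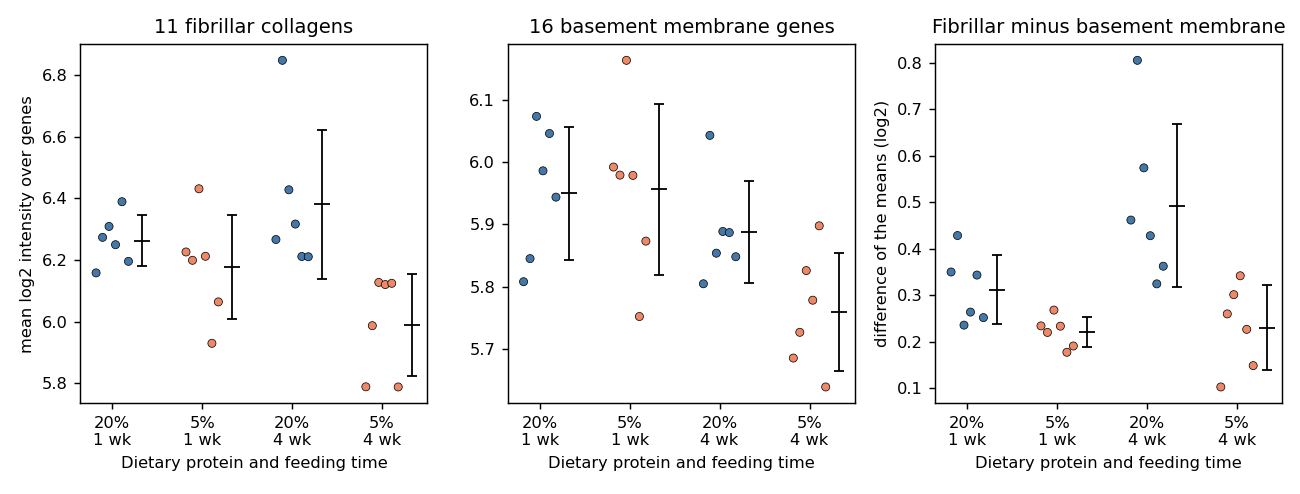
Mean log2 intensity of the fibrillar and basement membrane members, and their difference, in each animal by group, with the mean ± SD of 6 animals. At 4 weeks the difference is lower on 5% protein (0.23) than on 20% (0.49), and on 5% it is 0.22 at 1 week.

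At 1 week the background was smaller: 1.86% of all genes were called higher and 2.44% lower on 5% protein. Of the members 2 rose and none fell by limma, with a median difference of -0.03. Both rises were among the 35 members whose mean lay at or below the median of all genes. At an unadjusted limma p under 0.05, 6 members were lower, and the share of all genes at that cut was not counted. Col4a3, a type IV chain of specialised basement membranes, lay at 5.09, 5.35 and 5.52 on 20% and at 5.34, 5.70 and 5.90 on 5%, with overlap. It rose by 0.36 ± 0.09 (adjusted p = 0.0195). Col5a3, a minor fibril chain, lay at 5.44, 5.58 and 5.68 on 20% and at 5.64, 5.82 and 5.97 on 5%, and rose by 0.26 ± 0.07 (0.0421). Its call was lost without rats 49, 51, 52, 53, 54, 74, 75, 76, 77 or 79, and that of Col4a3 without rat 51, by a narrow margin. With only the 1-week animals in the fit neither gene passed, nor with the array plate row as a random block. Rows held 1 diet each at 1 week, so row and diet cannot be told apart there.

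Over all 1-week animals both marker collagens were within the spread, Col1a2 at -0.19 ± 0.23 and Col3a1 at -0.11 ± 0.21. Their values by run of animal numbers, which differ in sign, are given below. Loxl2 was the one member whose groups did not overlap in the lower direction (1.36% of all genes), with -0.39 ± 0.13 and an adjusted p of 0.0869. No member was higher without overlap, against 1.2% of all genes. Loxl4 had -0.62 ± 0.21 (0.0927), and Col14a1 -0.46 ± 0.14 (0.0732). With the run of animal numbers as a covariate, described next, Loxl2 (0.0453) and Loxl4 (0.0242) fell. Loxl4 also passed without rat 79 (0.0427), and Col14a1 without rat 51 (0.0363) or 52 (0.0302).

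The 1-week animals carried numbers in 2 runs, rats 49 to 54 and rats 74 to 79, each with 3 animals of each diet. The labels do not call the runs batches. In the earlier run 1 member was higher (2.86% of all genes) and 2 lower (4.71%). In the later run none was higher (4.04%) and 5 were lower (4.45%), and neither Col4a3 nor Col5a3 was called. The median difference of the members was 0.12 in the earlier run and -0.10 in the later. The diet difference itself differed between the runs in 3 members (5.17%), a smaller share than the 7.29% of all genes. Col14a1 had -0.02 and -0.90 in the earlier and later run (adjusted p of the difference = 0.0109), Col4a1 0.24 and -0.45 (0.0285), and Loxl1 0.39 and -0.75 (0.0483). The marker Col1a2 had 0.18 and -0.57, and Col3a1 0.35 and -0.57. For these markers the difference between the runs did not pass (0.292 and 0.14). At 4 weeks, the run of rats 22 to 32 (5 animals on 5% and 2 on 20%) gave 16 members lower, where 7.54% of all genes were. The run of rats 59 to 73 had 1 animal on 5%, assumed to vary like the rest, and 4 on 20%. It gave 12 members lower, where 5.49% of all genes were. Col3a1 had -1.09 and -1.60 in these runs, and Col1a2 -1.20 and -0.95, of which the last did not pass (0.117). No member's diet difference differed between these runs by limma (0.029% of all genes), and 4 did at an unadjusted p under 0.05.

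The diet difference at 4 weeks minus that at 1 week was tested directly. It was called negative in 4 members (2.2% of all genes) and positive in 1 (3.54%). Lox had -1.32 ± 0.28 (adjusted p = 0.00859), from 0.21 at 1 week to -1.11 at 4 weeks. Col14a1 had -0.79 ± 0.20 (0.0246), Sparc -0.72 ± 0.18 (0.0216) and Col26a1 -0.67 ± 0.19 (0.0388), and Col19a1 had 0.81 ± 0.19 (0.0175). By its second probe set the change for Col19a1 was 0.08 (0.669) and was not called. For Col3a1 it was -0.94 ± 0.30 (0.0651) and for Col1a2 -0.61 ± 0.32 (0.282), so a difference between the weeks was not shown for the markers. The call of Col26a1 was lost without any 1 of rats 31, 32, 51, 52, 54, 59, 67, 72, 74 or 77.

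Over time on each diet, the same animals as above are compared, so these tests share their groups with the diet tests. No run of animal numbers held rats of both weeks. Time and run therefore cannot be told apart, here or in the test of the change in diet difference above. Between runs (later minus earlier) Loxl4 differed by -0.80 on 20% protein at 1 week and by 0.65 at 4 weeks. From 1 to 4 weeks on 20% protein 4 members were lower at an unadjusted limma p under 0.05, a share not counted over all genes. After adjustment 1 member rose (1.02% of all genes) and none fell (1.5%). That member was Loxl4, with 6.45, 6.98 and 7.69 at 1 week and 7.86, 8.78 and 9.38 at 4 weeks, a rise of 1.65 ± 0.21 or 3.14-fold (adjusted p = 2.17e-05). On 5% protein 10 members fell (4.13% of all genes) and 2 rose (4.15%). Lox fell by 0.81 ± 0.20 (0.0123), Sparc by 0.75 ± 0.13 (0.000856), Loxl2 by 0.71 ± 0.13 (0.00145) and Col14a1 by 0.70 ± 0.14 (0.00396). Lama2 and Col4a1 fell by 0.60 ± 0.09 (0.00039) and 0.52 ± 0.12 (0.00814). A second probe set of Lama2 gave -0.09 (0.479) and was not called. Loxl4 rose by 0.76 ± 0.21 (0.0244) and Col19a1 by 0.47 ± 0.14 (0.0334). The second probe set of Col19a1 gave 0.06 (0.652) and was not called. Col3a1 had -0.56 ± 0.21 on 5% (0.109) and 0.37 ± 0.21 on 20% (0.399). The rise of Loxl4 on 5% was lost without rat 32 (0.0678) or 74 (0.0506). The rise of Col19a1 was lost without rats 31, 32, 54, 59 or 74.

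The genes that make and finish collagen were counted next, on lists that were, like the members, chosen with earlier results known. Over all genes at 4 weeks 12.4% were called lower and 13.4% higher, the shares against which these counts are read. Of 26 biosynthesis and processing genes at 4 weeks, 6 fell and 1 rose, with a median of -0.17. Serpinh1, the collagen chaperone, fell by 0.87 ± 0.18 (adjusted p = 0.000543). P4ha1, the proline hydroxylase subunit, fell by 0.68 ± 0.18 (0.00548), and Pcolce, which aids propeptide removal, by 0.65 ± 0.17 (0.00507). Pycr1, which makes proline, rose by 2.92 ± 0.23, 7.59-fold (1.55e-09), and at 1 week by 1.28 ± 0.23 (0.00157). Of 26 matrix proteases and inhibitors, 8 fell and 1 rose. Mmp19 fell by 0.92 ± 0.12 at 4 weeks (2.11e-06) and by 0.70 ± 0.12 at 1 week (0.000825). Adamts9 fell by 0.78 ± 0.14 (0.00015) and the inhibitor Timp2 by 0.75 ± 0.15 (0.000474), while Mmp11 rose by 0.63 ± 0.13 (0.000534).

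Fibril proteoglycans gave 4 falls and 1 rise of 11, where 12.4% of all genes fell and 13.4% rose at 4 weeks. Fmod fell by 1.06 ± 0.30 (adjusted p = 0.00947), Ogn by 0.90 ± 0.16 (0.000121) and Bgn by 0.58 ± 0.11 (0.000291), and Aspn rose by 0.40 ± 0.10 (0.00351). Of 11 further basement membrane genes 6 fell, Npnt by 1.30 ± 0.18 (5.55e-06), Smoc2 by 0.71 ± 0.20 (0.00827) and Pxdn by 0.56 ± 0.17 (0.0163). Elastic fibre and matricellular genes gave 5 falls and 1 rise of 25. Mfap4 fell by 1.35 ± 0.44 (0.0248) and Ccn1 rose by 0.94 ± 0.23 (0.00279). Of 25 genes of TGF-beta and PDGF signalling, which drive matrix synthesis, 5 fell, where 12.4% of all genes did. Tgfb3 fell by 0.75 ± 0.21 (0.0111) and the receptor Tgfbr1 by 0.56 ± 0.09 (6.14e-05). At 1 week 2 of these rose (1.86% of all genes), Bmp6 by 0.74 ± 0.14 (0.00345) and Smad3 by 0.40 ± 0.10 (0.0263). Of 27 matrix receptors 6 fell and 3 rose at 4 weeks, where 12.4% and 13.4% of all genes did. The laminin-binding integrin chains Itga6 and Itga7 rose by 2.52 ± 0.27 (2.8e-07) and 1.24 ± 0.12 (5.79e-08). The same 2 chains rose by 1.30 ± 0.27 and 1.31 ± 0.12 at 1 week. The syndecan Sdc1 fell by 0.99 ± 0.21 (0.000785).

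Markers of several liver cell types were also lower at 4 weeks, those of Kupffer cells most often by count. Over all genes 12.4% were called lower and 13.4% higher at that time. Of 12 stellate cell markers 5 fell and none rose, and their summed intensity was 2467 to 2750 on 5% against 3108 to 3765 on 20%. Rgs5, a pericyte and stellate cell gene, fell by 1.08 ± 0.17 (adjusted p = 4.86e-05). Of 8 fibroblast markers 2 fell, with sums of 925 to 2405 against 3365 to 4944, and Dpt, which carried most of that sum, was 2.83-fold lower (1.84e-05). Endothelial markers gave 5 falls of 11 (4629 to 5248 against 5341 to 6373). Kupffer cell markers, of liver macrophages, gave 9 falls of 11 (4198 to 5119 against 6229 to 10336). Of 7 myofibroblast and smooth muscle markers none passed in limma, with a median of -0.45 and sums of 886 to 1221 against 1016 to 2188. At an unadjusted limma p under 0.05, 3 of them were lower, and the share of all genes at that cut was not counted. Hepatocyte markers gave 5 falls of 8 (55057 to 66459 against 66149 to 75711), and of 7 cholangiocyte markers 3 rose. Normalized array values have no 0, so no marker can be called absent. The part of these markers in the collagen differences was not tested.

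Rat 30, on 20% protein for 4 weeks, was the highest of its 6 in 26 of the 58 members, against 16.7% of all genes. Its myofibroblast and smooth muscle sum was 2188, against 1016 to 1336 in the other 5, and its erythroid sum 10776 was the highest of the 6 as well.

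**Figure D4:**
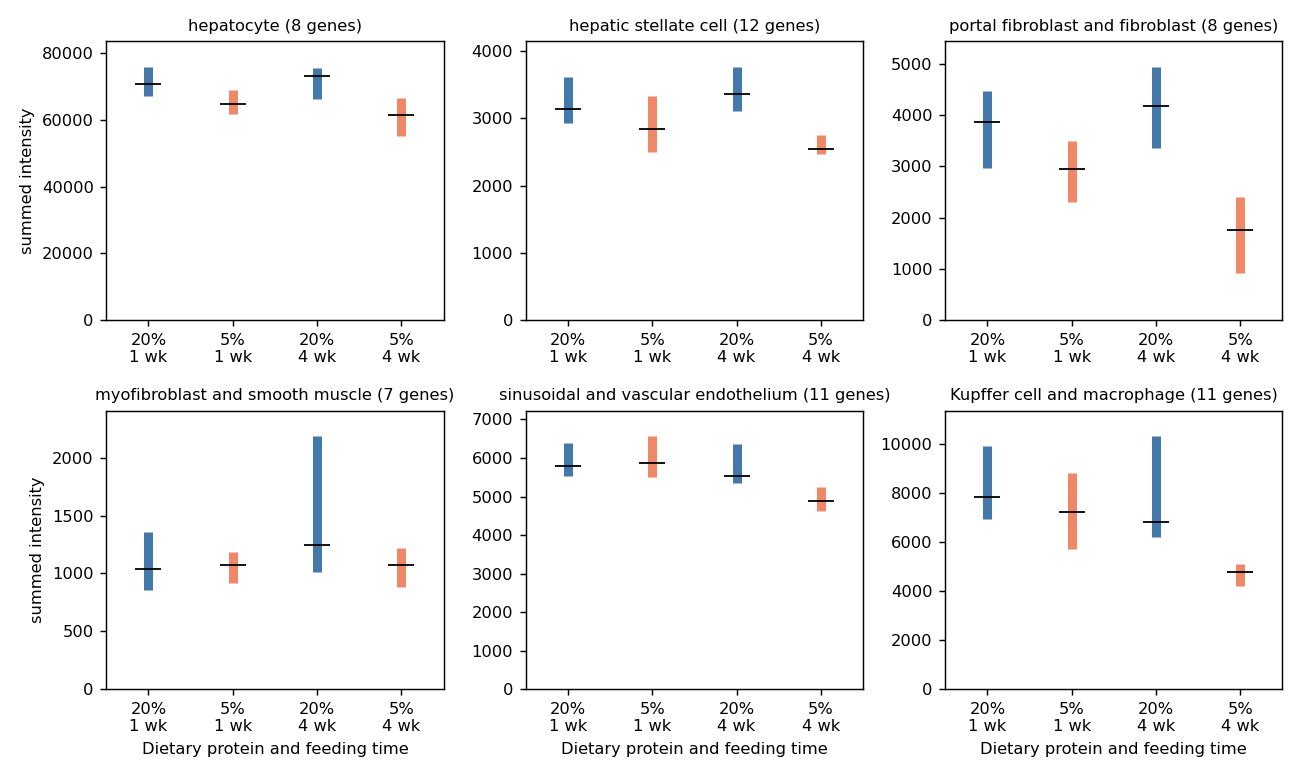
Summed intensity of the marker lists in each group; bars run from the lowest to the highest animal, and the black line is the median of 6. At 4 weeks the stellate, fibroblast, endothelial and Kupffer sums on 5% protein lie wholly below those on 20%.

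The 250 bases before the start were found for 47 of the 58 members, of which 15 fell at 4 weeks. CCAAT, on either strand, occurred in 12 of the 47 (25.5%) and in 34.3% of 27457 genes. TATAA, on the gene's strand, occurred in 8 (17.0%) against 17.1%. GGGCGG, on either strand, occurred in 24 (51.1%) against 32.4%, and CAGACA, on either strand, in 11 (23.4%) against 16.9%. No letter group contains another, and the members' windows had a median of 60% G and C, against 52% for all genes. Among the 15 that fell, 8 held GGGCGG, a share like that of all 47, 6 held CAGACA, 5 CCAAT and 3 TATAA.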

How the data were processed

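The deposited table holds intensities of 29214 probe sets on 24 arrays, RMA-normalized by the authors on an unlogged scale, per the labels and the submitters' processing notes. The genome build and annotation are not given in the sources used here. Log2 of each intensity was taken. A probe-to-gene table gave 1 symbol to 18644 probe sets, several to 962 and none to 9608; the probe set with the highest mean was kept, leaving 17245 genes. The 4 group means were fitted in limma 3.58.1 (R 4.3.3), with 20 residual degrees of freedom, two-sided tests and Benjamini-Hochberg adjustment over all genes. The text names 11 fixed genes in the diet comparisons, all members called there, and the 6 largest in each direction in time comparisons. From each list it names at most 3 called genes in each direction of a comparison, and from some lists fewer or none. Other genes named were chosen after their values were seen. The members and lists were chosen with earlier results of these data known. The fit was tested on simulated data. Alternatives changed normalization, offset, probe choice, filter, variance model, samples and technical covariates.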

Additional observations from a re-analysis of the deposited data

Results flagged for a closer look

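A value standing apart from the other 5 of its group was looked for in 120 gene-by-group sets (by the size of the gap against the range), and 8 were found, where chance gives about 1 in 20. Rat 30 (20% protein, 4 weeks) was high in 4 of them: Col3a1 9.66 (others 8.40 to 8.87), Col5a1 6.71 (6.34 to 6.45), Lamb2 7.63 (6.83 to 7.07) and Loxl2 8.04 (7.58 to 7.70). Rat 59 (5%, 4 weeks) was low for Col14a1, at 7.31 (7.80 to 7.94). Rat 32 of that group was high for Lamc1, at 8.65 (8.18 to 8.32). At 1 week on 5%, rat 76 was low for Lamc1, at 8.32 (8.49 to 8.56), and rat 49 high for Fn1, at 12.80 (12.65 to 12.71).

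The diet difference changed between 1 and 4 weeks, by the test of that change, for Lox (-1.32), Col14a1 (-0.79), Sparc (-0.72), Col26a1 (-0.67) and Col19a1 (0.81, but 0.08 by its second probe set). It also differed between the earlier and the later run of animal numbers at 1 week, by -0.87 for Col14a1, -0.69 for Col4a1 and -1.14 for Loxl1. Such run differences were called in 5.17% of the members and 7.29% of all genes, and their source was not tested.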

How the results depend on the processing

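Of 58 members, 23 were called at 4 weeks, and 13 in rats 59 to 73 alone, where 1 animal was on 5%. Diet and run of animal numbers were partly aligned at 4 weeks. With the run as a covariate 26 members were called, 1 higher and 25 lower, where 1896 and 1785 of all 17245 genes were. With 1 animal left out the count of members ran from 18 to 27. At 1 week the 2 calls, both higher, became 1 with a trended, robust variance, 0 with the 2 groups alone or plate row as a random block, 4 with the run as a covariate (2 higher, 2 lower), 5 in rats 74 to 79 alone (all lower, neither gene of the 2), and 1 to 2 with 1 animal left out (1 without rats 49, 51, 53, 54, 74, 75, 76 or 77). Without rat 51 the 1 call was Col14a1, which was lower. Without rat 52 Col14a1, and without rat 79 Loxl4, both lower, took the place of Col5a3. The diet-by-time count of 5 became 8 with the run as a covariate and 4 to 7 with 1 animal left out. The single call over time on 20% became 2 with centred medians, the dimmest 33.3% of genes left out, the trended variance or array weights, and 1 to 2 with 1 animal left out (2 without rats 30, 63 or 73). On 5% the 12 calls ran from 8 to 14. The fibrillar minus basement membrane diet difference at 4 weeks, -0.26, was -0.39 in rats 22 to 32 alone and -0.45 with members above the median level, and -0.30 to -0.20 with 1 animal left out; at 1 week it ran from -0.11 to -0.07. The causes were not tested. No paired analysis was possible because each rat number occurs in a single group.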

Other observations

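Outside the matrix lists, 3 of 7 cholangiocyte markers rose at 4 weeks on 5% protein (Epcam by 1.55, Sox9 by 0.66, Cldn4 by 0.43) and none at 1 week. Of 12 cell division genes, 5 fell at 1 week (Mcm5 by 1.02, Mcm6 by 1.01, Mcm4 by 0.85) and 1 at 4 weeks (Mcm4 by 0.66). Of 7 erythroid genes, 4 fell at 1 week and 3 at 4 weeks. Over all genes, 2.44% fell and 1.86% rose at 1 week, and 12.4% fell and 13.4% rose at 4 weeks.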
